A study of Rattus norvegicus with 4 samples.

Results

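Connexins are the membrane proteins of gap junctions. A ring of connexin subunits forms a half-channel, and 2 half-channels of neighbouring cells dock into a pore that lets ions and small molecules pass from cell to cell. Connexin 43, the product of Gja1, is the classical gap junction protein of astrocytes, fibroblasts and olfactory ensheathing cells, and connexin 32, the product of Gjb1, is known from Schwann cells and oligodendrocytes. The genes described here are 7 connexins, Gja1, Gja3, Gja4, Gja5, Gjb1, Gjb2 and Gjb6, picked by symbol among 35652 gene and transcript names on the array. The rule that picked them uses names and no measured value, though it was written with earlier results of these data known.

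Olfactory ensheathing cells are glia of the olfactory nerve and bulb that enclose bundles of sensory axons. Cultures from male Fischer rats, all grown by the same protocol, were sorted by flow cytometry into a p75High and a p75Low population, p75 being the low-affinity neurotrophin receptor encoded by Ngfr. Both populations of each of 4 biological replicates were hybridised to 1 Agilent array, p75High in Cy5 (red) and p75Low in Cy3 (green), after amplification of their cDNA by global PCR. No dyes were exchanged, so a dye effect and a population effect of a probe cannot be told apart. The sources used here give neither the age of the rats nor whether a replicate was a separate animal, so a p-value reflects variation among these samples, part of which may be technical. In such sorted cultures, fewer cells of a type and less RNA per cell cannot be told apart either.

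Each array gave a log2 ratio of p75High over p75Low, positive where p75High was brighter, and values over arrays are mean ± SD (n = 4 arrays). Tests are limma's moderated test of the mean ratio against 0, with Benjamini-Hochberg adjustment over 22191 genes and a threshold of 0.05. A probe is called well above background where the scanner software marked it so, and a gene was tested where this held in the same channel on at least 3 arrays. Of 41012 probes, 22464 to 28062 per array met this mark for p75High and 23044 to 26174 for p75Low. The sort gene Ngfr was higher in p75High by 5.80 ± 0.53 (adjusted p = 0.0262 in limma). Of 10 tested markers of ensheathing and Schwann lineage glia, a list that includes Ngfr, Ngfr alone passed the threshold in limma (3 at an unadjusted p under 0.05). The mean ratio was positive for 8 and negative for 2, and the list's median ratio was 1.57. Of 7 tested microglia and macrophage markers, 7 were lower in p75High, with a median ratio of -5.77. The number of arrays limits the precision of every value.

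The 7 genes were read by 8 probes, 2 of them for Gja1 and 1 for each of the others. Their sequences are shown because the results turn on which probes gave a signal. They are given 5′ to 3′ as the array files hold them, as the first 30 bases of each 60-base probe except for Gjb1, which is whole. Capitals in the first Gja1 probe mark bases that are the exact reverse complement of another probe described further on.
Gja1 (A_44_P393551): aCAAAAACAAAACTCATCACAGATGATTGA
Gja1 (A_44_P278604): gtggttaatagaatgattccttataacctt
Gja3 (A_43_P12431): agcggacgagccagaccaggtgacttggcc
Gja4 (A_42_P767077): gccttagtgatgaccaaaggacactggctt
Gja5 (A_44_P382979): tgagaccagtcttcgatggtgaggtttttc
Gjb1 (A_44_P147055): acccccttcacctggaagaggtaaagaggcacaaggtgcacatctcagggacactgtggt
Gjb2 (A_42_P489764): caacaggggacacttcttcctgccaagaat
Gjb6 (A_42_P640792): aagtgagaccctctctaaaattagcctttc

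The array file places the probes on the rn4 build of the rat genome. The Gja1 probes lie at chr20:35422026-35422085 and chr20:35421821-35421880 on the plus strand, 205 bases apart from start to start. Gja5 lies at chr2:191843775-191843834 and Gjb1 at chrX:89455686-89455745, both on the plus strand, and Gja4 at chr5:146755345-146755404 on the minus strand. Gja3 (chr15:36052653-36052712), Gjb2 (chr15:36153667-36153726) and Gjb6 (chr15:36177768-36177827) lie in a row on the minus strand of chromosome 15, with 101014 bases between the starts of the Gja3 and Gjb2 probes and 24101 bases between those of Gjb2 and Gjb6. Their G+C content ran from 30% for the single-spot Gja1 probe to 55% for Gja3 and Gjb1. Whether a probe lies in a coding or an untranslated exon was not analysed here, since no annotation of this build was used.

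Of the 7 connexins, 5 were tested and 0 passed the threshold in limma in either direction, against 0.748% of all genes tested (0.311% higher and 0.437% lower in p75High). At an unadjusted p under 0.05 the count was also 0 of 5, against 12.7% of all genes tested. The mean ratio was positive for Gja3, Gja4, Gjb1 and Gjb2 and negative for Gjb6, and the median of the 5 genes was 0.25, beside -0.03 over all genes tested. The ratio was above 0 on all 4 arrays for 2 of the 5 genes (12.5% of all genes tested) and below 0 on all 4 for 1 (13% of all genes tested). Levels in the p75High and p75Low channels overlapped for all 5, whereas they did not overlap for 7.68% of all genes tested. Gja1 and Gja5 were not tested because their probes were not well above background.

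**Figure D1:**
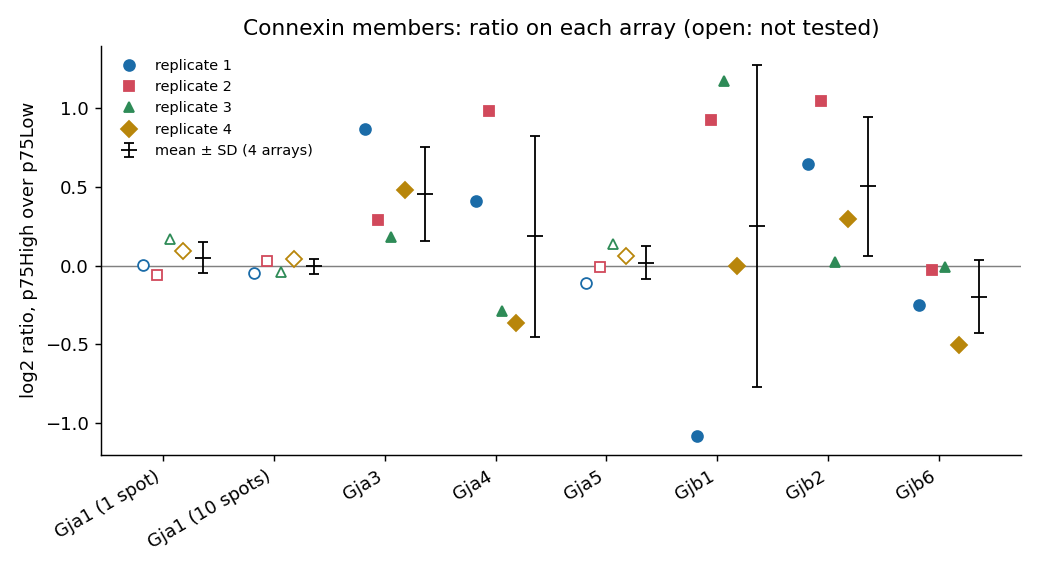
Log2 ratio of p75High over p75Low on each of the 4 arrays for the 8 connexin probes (filled: tested, open: not tested), with the mean ± SD of the 4 arrays as a black bar. Gja3 and Gjb2 sat above 0 on every array, Gjb6 below 0, and Gjb1 ran from -1.08 to 1.17.

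The 2 probes named Gja1 gave no clear signal over background. This holds for these probes and may not hold for the gene as a whole. Unnamed probes placed nearby, described further on, did give a signal, but whether they read Gja1 was not tested. The first named probe (A_44_P393551) was printed as 10 spots on every array, and 2 of its 80 spot readings over both channels were well above background. The second probe (A_44_P278604) was printed once and was above background in 0 of 8 readings. As a measure of the floor, the spot brightness minus local background ("net signal") of 153 negative control spots per array had medians from 2.24 to 3.13 and 95th percentiles from 10.2 to 11.9 in the p75High channel. In the p75Low channel the medians ran from -2.62 to -1.37 and the 95th percentiles from 3.39 to 5.38. Of the 1224 negative control readings, 6 (0.49%) were marked well above background.

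The net signal of the 10-spot Gja1 probe was 4.31, 8.80, 2.08 and 7.33 in p75High for replicates 1 to 4, and 2.47, 2.03, -0.82 and 1.08 in p75Low. All 8 values lay below the 95th percentile of the negative controls of their own channel. Each value is a mean of 10 spots, whereas that percentile is of single control spots, so the comparison is not like for like. All but the p75High value of replicate 3 lay above the median of those controls. The single-spot probe read 6.77, 20.4, 9.55 and 4.63 in p75High and 0.91, 10.2, -3.47 and -3.54 in p75Low, and only the pair of replicate 2 exceeded that percentile. The ratios were -0.05, 0.03, -0.04 and 0.04 for the first probe and 0.01, -0.06, 0.17 and 0.09 for the second. No fold is given, since neither probe passed the filter for testing.

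Gja5, which encodes connexin 40, known from arterial endothelium and cardiac conduction tissue, was in the same position. It was well above background in 0 of 8 readings, with net signals of 8.34, 5.91, 11.6 and 8.87 in p75High and 7.39, 0.46, -1.45 and 0.11 in p75Low. The p75High value of replicate 3 and the p75Low value of replicate 1 exceeded the 95th percentile of the negative controls (10.3 and 5.38). Its ratios of -0.11, -0.01, 0.14 and 0.06 likewise allow no fold.

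**Figure D2:**
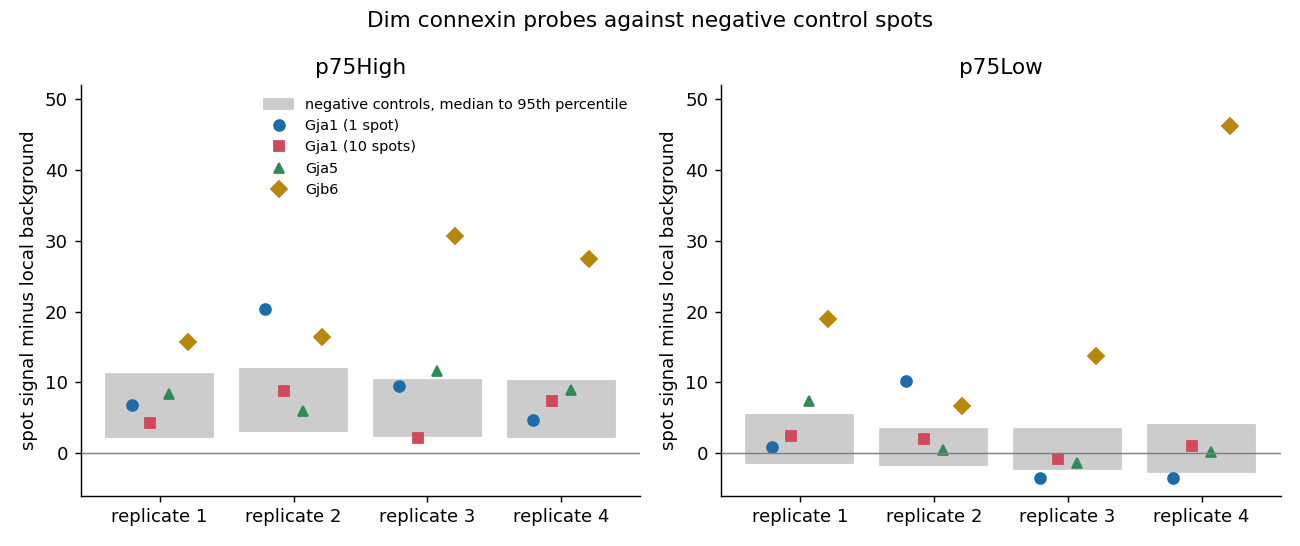
Net signal (spot brightness minus local background, in scanner units) of the Gja1, Gja5 and Gjb6 probes by replicate in the p75High (left) and p75Low (right) channel; grey boxes span the median to the 95th percentile of 153 negative control spots. The 10-spot Gja1 probe stayed inside the grey range or below it, and Gjb6 lay above it in every reading, up to 46.2 in p75Low of replicate 4.

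Other probes lie near Gja1 and carry no gene name in the file. There were 4 of them within 5000 bases, all placed on the strand opposite to the Gja1 probes. The nearest (A_44_P125273, chr20:35422027-35422086) shares 59 of its 60 bases, as an exact reverse complement, with the 10-spot Gja1 probe, and it too was above background on no array.
A_44_P125273, bases 31 to 60, with the capitals matching those of the first Gja1 probe: TTCAATCATCTGTGATGAGTTTTGTTTTTG
A second pair was well above background on all 4 arrays in both channels. Their sequences are given whole because they are the probes of the region with a clear signal.
A_44_P547197: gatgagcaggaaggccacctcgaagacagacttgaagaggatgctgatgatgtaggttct
A_44_P547191: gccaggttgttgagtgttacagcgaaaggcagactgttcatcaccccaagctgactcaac
The first of them, at chr20:35419780-35419839, started 2041 bases below the single-spot Gja1 probe in coordinate and had a mean log2 brightness of 9.22. Its ratios were -1.20, 0.98, 2.49 and -0.45, with both signs among the 4 arrays (adjusted p = 0.796 over all probes in limma). The other, at chr20:35419444-35419503, had a mean log2 brightness of 7.99 and ratios of -0.48, -0.03, -5.57 and 1.17 (adjusted p = 0.687 over all probes in limma). Its replicate 3 stood far below the rest through the p75Low channel, at a normalised log2 intensity of 13.1 against 6.99 to 7.35 in the other 3 replicates. The fourth probe (A_44_P836591, chr20:35420837-35420896) was above background in p75High on 2 arrays and in p75Low on 3. The labels do not say which strand of the amplified cDNA carried the dye, so whether these probes read the Gja1 transcript or one from the other strand cannot be told from them.

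**Figure D3:**
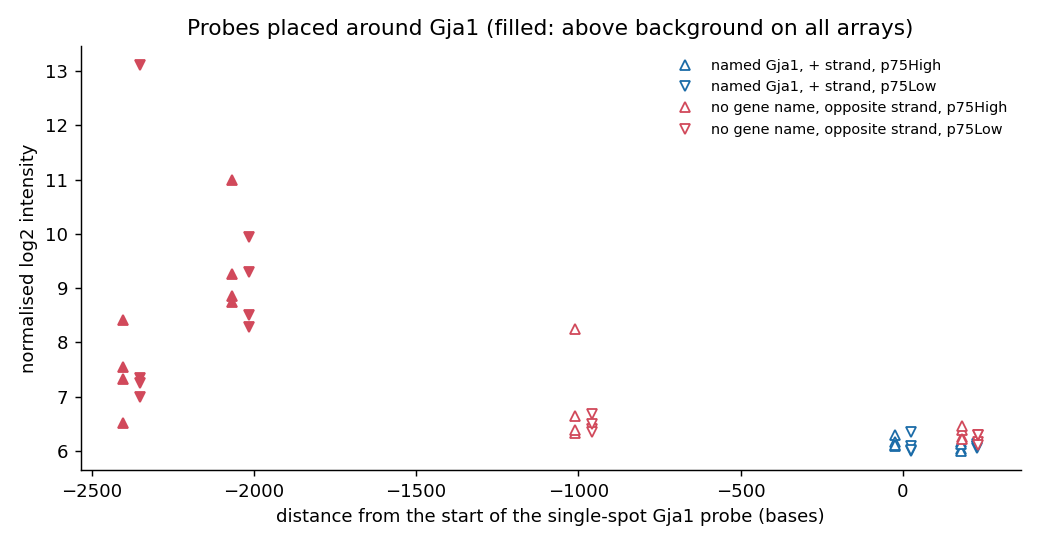
Normalised log2 intensity of the probes placed around Gja1, by distance in bases from the start of the single-spot Gja1 probe; upward triangles are p75High and downward triangles p75Low, 4 arrays each, drawn slightly apart, and filled symbols mark probes above background on all arrays in both channels. The named Gja1 probes sat near 6 and the probe at -2041 bases at 8.28 or above.

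Among the alpha connexins that were measured, Gja3 encodes connexin 46, known above all from lens fibre cells. Its net signal was 475, 447, 413 and 457 in p75High for replicates 1 to 4, and 145, 196, 192 and 281 in p75Low. After normalisation of the dyes the ratios were 0.87, 0.29, 0.18 and 0.48. All 4 arrays thus gave a higher value in p75High, but the levels of the populations overlapped, since the p75Low level of replicate 4 (9.08 on the log2 scale) exceeded the p75High levels of replicates 1 to 3 (8.33 to 8.55). The mean ratio was 0.46 ± 0.30, a 1.37-fold ratio with a 95% interval from 0.81 to 2.31 (adjusted p = 0.545 in limma).

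Gja4 encodes connexin 37, a gap junction protein of endothelium and of the oocyte. Its net signal was 88.7, 188, 111 and 70.8 in p75High and 21.4, 24.1, 74.5 and 87.3 in p75Low. The arrays split into 2 with a positive ratio, 0.41 and 0.98 for replicates 1 and 2, and 2 with a negative one, -0.29 and -0.36 for replicates 3 and 4. The mean was 0.19 ± 0.64, with a 95% interval from -0.77 to 1.14 (adjusted p = 0.841 in limma), and it was -0.08 without replicate 2. Of 5 tested endothelial markers 0 passed the threshold in limma (2 at an unadjusted p under 0.05), all 5 had a positive mean ratio, and their summed level ran from 1519 to 2984 in p75High and from 784 to 1128 in p75Low. The listed Pecam1, Kdr and Emcn failed the filter on dim probes. The part of endothelial cells in the Gja4 and Gja5 values was not tested.

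Among the beta connexins, Gjb1 varied most between arrays. Its net signal was 164, 201, 159 and 46.8 in p75High and 298, 31.4, 5.60 and 30.8 in p75Low. Replicate 1 was brighter in p75Low, replicates 2 and 3 in p75High, and replicate 4 was level, with ratios of -1.08, 0.92, 1.17 and -0.00. The mean ratio was 0.25 ± 1.02, with a 95% interval from -1.03 to 1.53 (adjusted p = 0.836 in limma), an SD close to the median SD of 1.14 over all genes tested. Without replicate 3 the mean was -0.05, and without replicate 1 it was 0.70.

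Gjb2 and Gjb6 encode connexins 26 and 30, which are known to form mixed gap junctions in the supporting cells of the inner ear and, in the case of connexin 30, to occur in astrocytes. The net signal of Gjb2 was 215, 268, 126 and 191 in p75High and 62.8, 43.2, 57.8 and 125 in p75Low. Its ratios of 0.64, 1.04, 0.02 and 0.30 were all positive, with replicate 3 next to 0. The mean of 0.50 ± 0.44 corresponds to a 1.42-fold ratio with a 95% interval from 0.80 to 2.51 (adjusted p = 0.544 in limma). Its p75Low levels of replicates 1 to 3 lay within 6.99 to 7.04 on the log2 scale, and p75High reached from 7.05 to 8.55 over the 4 replicates, so that the overlap came from the p75Low level of replicate 4 at 8.25.

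Gjb6 was close to the limit of detection. It was well above background on 1 of 4 arrays in p75High and on 3 of 4 in p75Low. The net signal was 15.7, 16.4, 30.7 and 27.5 in p75High and 19.0, 6.73, 13.8 and 46.2 in p75Low. Its ratios were -0.25, -0.03, -0.01 and -0.51, a mean of -0.20 ± 0.23 with a 95% interval from -0.92 to 0.53 (adjusted p = 0.773 in limma). The neighbours on chromosome 15 therefore did not share a sign, with positive means for Gja3 and Gjb2 and a negative one for Gjb6, each within an interval that held 0.

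**Figure D4:**
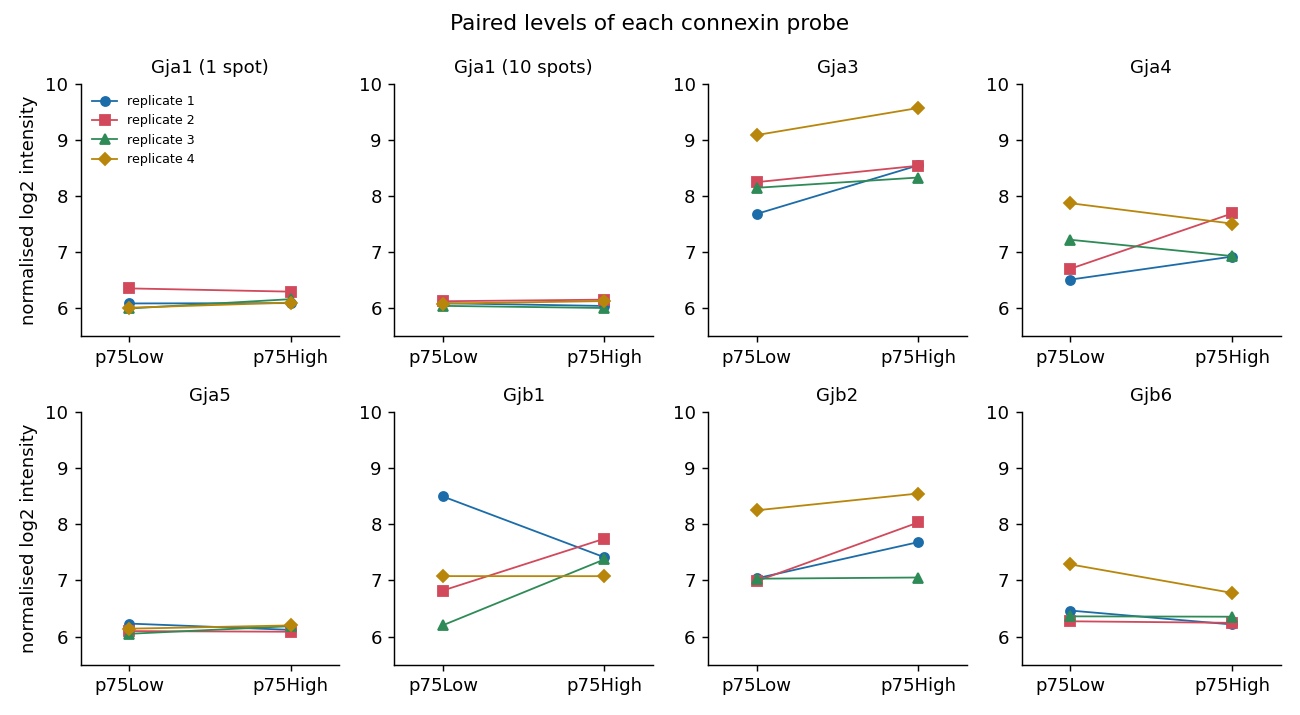
Normalised log2 intensity of each connexin probe in p75Low and p75High, with a line for each of the 4 replicates; all panels share 1 axis. Lines for Gja3 and Gjb2 rise in every replicate, those for Gja4 and Gjb1 cross, and those for Gja1 and Gja5 lie flat near 6.

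The background correction adds an offset of 50 to both channels, which draws the ratios of dim probes toward 0. The scanner's own ratios carry no such offset, but they also replace the loess normalisation. With them the means were 0.70 for Gja3, 0.46 for Gja4, 0.79 for Gjb1, 0.94 for Gjb2 and -0.94 for Gjb6. Of the 5, 0 passed (lowest adjusted p = 0.527 in limma, 0 at an unadjusted p under 0.05). Median centring in place of loess, with the offset kept, gave means of 0.67, 0.39, 0.42, 0.69 and -0.16 in the same order. What the offset alone changed was not tested.

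The profile of Gja3, whose probe was the brightest of the 8, over the 4 arrays was closest to that of Dhx30, Sel1l3, Hbb, Cxadrl1 and Hmga2 among 10721 tested genes with a matched symbol. The root mean square difference of their 4 ratios from those of Gja3 was 0.12 for Dhx30 and Sel1l3, 0.13 for Hbb and 0.14 for Cxadrl1 and Hmga2 on the log2 scale. With 4 values a gene, such nearness is a description and no more.

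Beyond the 7 genes, Gjd3, Gjc3, Gjd4 and Gjb5 of the same family were tested, as were other connexins that are not reported here. Of these 4 genes 0 passed the threshold in limma, with 1 (Gjd3) at an unadjusted p under 0.05. The Gjd3 probe is printed whole because its mean ratio was the furthest from 0 among these 4 genes and the 5 tested above.
Gjd3 (A_44_P199541, chr10:87759871-87759930, minus strand): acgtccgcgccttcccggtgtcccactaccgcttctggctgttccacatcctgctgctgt
Gjd3, named Gjc1 in the array file, encodes a connexin known from the cardiac conduction system. Its net signal was 2887, 4656, 2186 and 4764 in p75High and 488, 963, 629 and 474 in p75Low. The ratios of 2.20, 1.34, 1.00 and 2.91 were positive on all arrays and the levels did not overlap. The mean was 1.86 ± 0.86, with a 95% interval from 0.73 to 3.00 (unadjusted p = 0.009, adjusted p = 0.251 in limma), and it did not pass the threshold.

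Gjc3, expressed in myelinating glia, had ratios of -1.65, -0.50, 0.06 and -1.52, a mean of -0.90 ± 0.82, and was well above background on 3 of 4 arrays in each channel. Gjd4 had a mean of 0.22 ± 0.50 and Gjb5 one of 0.02 ± 0.35. The adjusted p of these 3 genes ran from 0.456 to 0.978 in limma. Gja6, Gja10, Gjc1 and Gjd2 were on the array but failed the filter on dim probes.

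**Figure D5:**
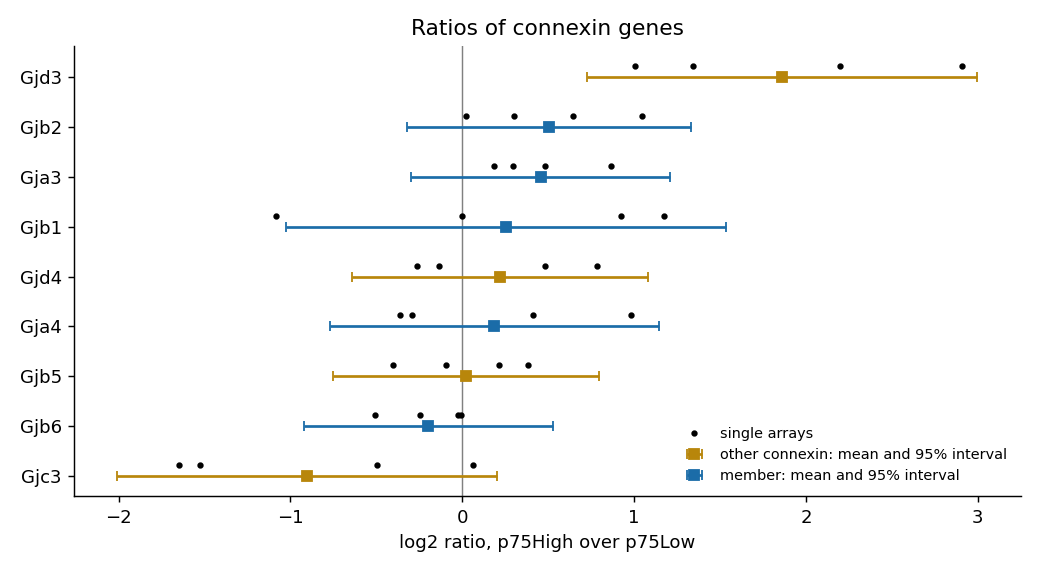
Mean log2 ratio of p75High over p75Low with limma's 95% interval for 9 connexin genes (blue: the 5 tested genes of the chosen 7, yellow: other connexins), and the 4 single-array ratios as black dots. Gjd3 at 1.86 was the furthest from 0, and every interval of the 5 chosen genes held 0.

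Pannexins form channels in the membrane of single cells and are related in structure to gap junction proteins. Of 3 genes only Panx2 was tested, with ratios from -1.46 to 1.78, positive on 2 arrays and negative on 2, and a mean of 0.24 ± 1.47 (adjusted p = 0.886 in limma). Panx1 was above background in each channel on 1 array and Panx3 on none.

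Connexins are held at the junction by scaffold proteins and cadherins. Of 15 listed scaffolds and junction partners 11 were tested and 0 passed the threshold in limma (1 at an unadjusted p under 0.05), although 9 of 11 means were positive and the median was 0.62. Cdh2, which encodes N-cadherin, had ratios of 0.93, 2.35, 3.44 and 6.26, a mean of 3.24 ± 2.26 (adjusted p = 0.32 in limma), with 2 of 4 p75Low channels above background. Tjp1, the gene of the connexin 43 partner ZO-1, had a mean of 2.05 ± 1.86 (adjusted p = 0.398 in limma), and its other 3 probes had means from 1.20 to 1.73. Tubb5, a tubulin, had a mean of 1.23 ± 1.18 (adjusted p = 0.437 in limma).

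Kinases that phosphorylate connexin 43 were represented by 13 listed genes, of which 11 were tested and 0 passed in limma (1 at an unadjusted p under 0.05), with a median ratio of -0.05. Csnk1e, which encodes casein kinase 1 epsilon, had the mean furthest from 0 in the list, with ratios of -2.34, -3.83, -4.48 and -5.88 and every p75High level below every p75Low level. Its mean of -4.13 ± 1.47 did not pass (adjusted p = 0.118 in limma), and its dimmer probe had a mean of -1.39 ± 1.48. Akt1 had a mean of 1.71 ± 2.28 and Mapk3 of 1.33 ± 2.69, with ratios of 4.85 and 5.14 in replicate 4, and without that replicate their means were 0.66 and 0.054.

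Genes of connexin assembly, ubiquitination and turnover were represented by 8 listed genes, of which 7 were tested and 0 passed in limma (1 at an unadjusted p under 0.05), with a median ratio of 0.23. Erp29, a chaperone of the endoplasmic reticulum known to act in connexin 43 assembly, had ratios of -4.38, -3.99, 0.75 and -3.96, a mean of -2.89 ± 2.44 (adjusted p = 0.367 in limma). The ubiquitin ligase Nedd4 had ratios of 1.74, -0.09, 5.91 and -0.35, a mean of 1.80 ± 2.89 that was 0.43 without replicate 3, and its other probe had a mean of 2.36 ± 1.58. Smurf2, also a ubiquitin ligase, had a mean of -1.74 ± 2.16 that was -0.81 without replicate 4, and its other probes had means of 1.82 and -0.22.

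Marker lists of further cell types in which these connexins are known had 0 genes past the threshold in limma. The median ratio was 0.36 over 4 tested astrocyte markers (0 at an unadjusted p under 0.05), 0.87 over 5 epithelial markers (1), -1.07 over 4 oligodendrocyte markers (1), 2.73 over 3 fibroblast and meningeal markers (3), -0.10 over 4 smooth muscle and pericyte markers (0) and -0.22 over 4 neuronal markers (1). Of the fibroblast and meningeal list, Dcn, Lum and Pdgfra failed the filter on dim probes and Foxc1 was not on the array. The tested markers did not all follow their list's median. The oligodendrocyte marker under that p was Mog at 2.55 ± 1.92, against a negative median, and of the fibroblast markers Col1a2 was at -2.71 ± 1.48 while Col1a1 was at 2.73 ± 1.20 and Postn at 4.80 ± 1.60. Mog, Col1a2, Col1a1 and Postn were named after their values were seen. The summed level of the astrocyte list ran from 459 to 4981 in p75High and from 400 to 668 in p75Low, and that of the epithelial list from 1404 to 2641 and from 909 to 1403. Their part in the connexin values was not tested.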

How the data were processed

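The deposited intensity values were, per the file headers, the mean pixel value of a spot and the median of the background around it, for both channels, read with Feature Extraction 10.5.1.1 on array design 014879. Agilent Feature Extraction 10.5 is the tool in the submitters' processing notes. The deposited log10 ratios were the scanner software's, per the file headers, and served as an alternative. The authors' value table held the same ratios (maximum difference 0). All arrays were on 1 slide, read in 1 scan.

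Intensities were corrected with normexp (offset 50) and loess-normalised (span 0.3) within arrays in limma 3.58.1 under R 4.3.3. Control and outlier spots had weight 0 in loess and were then left out. Spots were averaged per probe, 24941 of 41012 probes passed the filter, and the brightest stood for a gene with at least 2 readings. Of 41012 probes, 10928 were named through the accession in RefSeq (GRCr8), 5188 through the symbol and 3481 through a former symbol, and 21415 kept the file's name. Named genes are all connexins tested, and in each pathway list the genes past the threshold or otherwise the 3 largest ratios; some genes that this rule took are not reported here. The 7 connexins, by name alone, and all lists were chosen with earlier results of these data known. The fit was also run on simulated ratios with the spread of the real genes. That run does not show whether changes as small as those of the connexins would be called.

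The design text pairs the samples. Correlations of the 2 channels of an array, after removal of group means, were 0.126, 0.061, 0.067 and 0.26, and at most 0.051 across arrays. The alternatives were no background correction, scanner ratios, median centring, filters on dim probes, kept outlier spots, the median over probes, no replicate block and each replicate left out.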

Additional observations from a re-analysis of the deposited data

Results flagged for a closer look

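Erp29, the chaperone of connexin assembly, had 1 array far from the rest, with a ratio of 0.75 in replicate 3 against -4.38 to -3.96 in the other 3. It was the only such array among 40 sets of 4 ratios examined. By chance alone about 1 in 20 sets is flagged, so this single flag is no more than chance gives. Panx1, described below, was not among these sets.

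The unnamed probes A_44_P547197 and A_44_P547191, which no comparison of connexin genes uses, start 2041 and 2377 bases below the single-spot Gja1 probe in coordinate. Both were well above background on all 4 arrays in both channels, with a mean log2 brightness of 9.22 and 7.99. The probes named Gja1 did not pass the filter on dim probes. Whether the unnamed probes read the Gja1 transcript was not tested.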

How the results depend on the processing

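Of the 7 connexins, 0 passed under any of the 12 alternatives, with 0 at an unadjusted p under 0.05 and a lowest adjusted p between 0.41 (median centring) and 0.704 (no replicate block) in limma. Gja1 and Gja5 were tested only without the filter (adjusted p = 0.895 and 0.967), and Gjb6 was not tested under the stricter filter. With 1 replicate left out, the mean ratio ran from -0.081 to 0.37 for Gja4 (lowest without replicate 2), from -0.054 to 0.70 for Gjb1 (lowest without replicate 3), from -0.096 to 0.17 for Gjb5 and from -0.27 to 0.81 for Panx2, the signs turning in each. That of Gjb5 was also -0.039 without background correction and -0.13 with scanner ratios, and that of Smurf2 was 0.041 with the median over probes. The causes were not tested. The single call over the pathway lists, of a gene not reported here, became 0 with scanner ratios, with median centring and without each replicate (0 to 0).

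Over all genes, the 166 calls (69 higher, 97 lower) became 265 (111 and 154) with scanner ratios, 89 (37 and 52) without the filter and 308 (152 and 156) with no replicate block. Without each replicate in turn the count, in either direction, was 0 to 0, while 1884 to 2375 had an unadjusted p under 0.05, with an adjusted p of Ngfr from 0.0963 to 0.138. Signal over background limited Gja1, Gja5 and Gjb6.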

Other observations

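Panx1, a pannexin that failed the filter on dim probes, had a ratio of -5.08 in replicate 1 and ratios from -0.06 to 0.03 in the other 3 replicates. Unnamed probes on the opposite strand also lie beside the probes of other connexins. The one beside Gja4 (A_44_P174316, 80 bases lower in coordinate) had ratios of 0.42, 0.38, -0.34 and 1.44, against 0.41, 0.98, -0.29 and -0.36 for Gja4 itself, so that replicate 4 differed in sign. The one beside Gjb2 (A_44_P781967, 470 bases higher) had ratios of -0.00, 0.54, -0.35 and 0.00, with both signs where Gjb2 had only positive ones.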
